A study of Mus musculus with 12 samples.

Results

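To compare the chromatin opened under a limb-level and a thoracic Hox factor, accessible domains of Hoxc6-expressing cells (iHoxc6) were set directly against those of Hoxc9-expressing cells (iHoxc9). A domain at least 150 bp wide on chromosomes 1 to 19, X or Y was called line-specific when it overlapped no domain of any width in the other list, where 1 bp counted as overlap. This gave 12553 line-specific domains, 9240 in iHoxc6 and 3313 in iHoxc9, of the 482514 domains in the 6 lists of the series. Both lines were mouse embryonic stem cells of the Ainv15 background, labelled Ainv15(iFlag.Hoxc6) and Ainv15(iFlag.Hoxc9), in which a single copy of a Flag-tagged, doxycycline (Dox)-inducible transgene sits at the Hprt locus. They were aggregated into embryoid bodies and differentiated for 4 days with 1 µM retinoic acid (RA) and 0.5 µM Smoothened agonist (SAG), with 3 µg/mL Dox from day 2 for 48 h. Chromatin accessibility was assayed by ATAC-seq, in which a transposase inserts sequencing adapters into open DNA. Further lists served for reference: untreated embryoid bodies (EB) and day 2 progenitors after 2 days of RA and SAG, both of the Ainv15(iCre) genotype, day 4 cells of the Ainv15(iFlag.Hoxc6) line without Dox (no Dox), and day 4 cells with Hoxc10 induced for 48 h in the Ainv15(iFlag.Hoxc10) line (iHoxc10). The day 4 cultures hold motor neurons and interneurons together, so fewer cells of a type and less signal per cell cannot be told apart. Each group had 2 samples and 1 domain list for both of them. No value below has a replicate error, no test between samples was possible, and intervals on shares (95%, Wilson) cover counting error only.

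Hox proteins are homeodomain transcription factors that assign position along the head-to-tail axis of the embryo. At brachial levels, Hoxc6 belongs to the program that generates the lateral motor column, the Foxp1-expressing motor neurons that innervate the limb. At thoracic levels, Hoxc9 represses the limb-level Hox genes and promotes preganglionic and hypaxial motor neuron fates. Homeodomains of anterior and central Hox proteins read a TAAT core, while posterior, Abd-B type homeodomains such as that of Hoxc9 favour TTTAT, which reads ATAAA on the other strand. The TALE homeodomain proteins Pbx and Meis bind DNA together with Hox proteins, and the strings TGATTAAT and TGATTTAT join a Pbx half-site with an anterior and a posterior Hox half-site.

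The widest line-specific domains illustrate both classes, and the central 200 bp of 3 of them per line are given below from the GRCm38 (mm10) plus strand, with TTTAT and its reverse complement ATAAA in capitals. For iHoxc9 these are the 3 widest. For iHoxc6 they are the next 3 after the widest, which lay in Def8 and is not printed. The iHoxc6-specific domains lay 142 kb from the start of Sox4 (a neuronal SOX factor), at chr13:28811139-28811338, 53.9 kb from Slc7a1 (an amino acid transporter), at chr5:148453708-148453907, and in an intron of Skap1, at chr11:96576816-96577015. The iHoxc9-specific domains lay in the intergenic region nearest to Pdcd1, at chr1:94548153-94548352, in an intron of Uri1, at chr7:37970737-37970936, and 313 kb from Ndufa4, at chr6:11593982-11594181.
iHoxc6-specific, Sox4: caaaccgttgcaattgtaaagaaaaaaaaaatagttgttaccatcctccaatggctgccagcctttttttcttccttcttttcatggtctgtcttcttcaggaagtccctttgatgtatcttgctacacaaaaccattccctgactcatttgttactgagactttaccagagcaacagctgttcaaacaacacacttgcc
iHoxc6-specific, Slc7a1: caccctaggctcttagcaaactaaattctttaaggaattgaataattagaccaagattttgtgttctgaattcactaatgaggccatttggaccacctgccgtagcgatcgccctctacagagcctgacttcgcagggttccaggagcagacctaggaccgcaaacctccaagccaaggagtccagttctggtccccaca
iHoxc6-specific, Skap1: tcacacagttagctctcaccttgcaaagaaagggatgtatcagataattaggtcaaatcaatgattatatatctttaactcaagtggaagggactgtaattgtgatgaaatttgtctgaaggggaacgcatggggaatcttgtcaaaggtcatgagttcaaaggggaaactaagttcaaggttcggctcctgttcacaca
iHoxc9-specific, Pdcd1: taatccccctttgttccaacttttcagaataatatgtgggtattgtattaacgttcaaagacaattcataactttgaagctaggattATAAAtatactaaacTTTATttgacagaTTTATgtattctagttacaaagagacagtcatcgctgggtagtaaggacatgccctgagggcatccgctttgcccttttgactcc
iHoxc9-specific, Uri1: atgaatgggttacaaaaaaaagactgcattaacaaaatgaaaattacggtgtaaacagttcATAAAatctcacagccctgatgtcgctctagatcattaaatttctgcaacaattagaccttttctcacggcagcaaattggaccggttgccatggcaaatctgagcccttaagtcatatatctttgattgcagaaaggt
iHoxc9-specific, Ndufa4: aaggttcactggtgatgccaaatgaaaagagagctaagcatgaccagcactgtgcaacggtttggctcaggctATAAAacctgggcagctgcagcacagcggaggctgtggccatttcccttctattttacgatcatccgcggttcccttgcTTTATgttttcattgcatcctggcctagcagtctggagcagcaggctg
No match to TTTAT lay in the 3 iHoxc6-specific stretches, whereas the iHoxc9-specific stretches near Pdcd1, Uri1 and Ndufa4 held 3, 1 and 2 matches.

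These 6 domains also differed in the other lists. The Sox4 domain (1373 bp, accessible in iHoxc6) was covered over 946 bp in progenitors and 902 bp in no Dox cells, the Slc7a1 domain (1333 bp) over 583 and 1259 bp, and the Skap1 domain (1265 bp) over 1265 and 1189 bp. The Pdcd1 domain (1188 bp, accessible in iHoxc9) was covered over 567 bp in progenitors and 247 bp in no Dox cells, the Uri1 domain (1156 bp) over 0 and 511 bp, and the Ndufa4 domain (1018 bp) over 0 and 0 bp. In iHoxc10 cells all 3 iHoxc9-specific domains were covered in part, over 659, 682 and 338 bp. The widest iHoxc6-specific domain, 4319 bp in an intron of Def8, was covered over 4316 bp in no Dox cells, 3319 bp in progenitors and 3140 bp in EB, but over 34 bp in iHoxc10 and 0 bp in iHoxc9.

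Promoters (within 1 kb of a transcription start site, TSS) of 5 of 5 motor neuron genes (Mnx1, Isl1, Isl2, Lhx3 and Olig2) held a domain in both lines. They did so in all 6 lists, EB included, so promoter domains are no check of the motor neuron identity of these cultures. Of 5 pluripotency promoters, those of Klf4 and Esrrb held a domain in both lines, and those of Pou5f1 and Nanog in neither, while EB held 5 of 5. Mesoderm and endoderm markers were not at 0 and differed by 1 gene, with a promoter domain at 5 of 5 in iHoxc6 and 4 of 5 in iHoxc9, where Sox17 lacked it, and 2 of 3 neural crest markers had one in both lines. The part of such other cells in the results below was not tested. Of the 705 bp of Hoxc6 coding sequence, 544 bp were covered in iHoxc6, 76 bp in iHoxc9 and 0 bp in the other 4 lists, and an iHoxc6-specific domain of 242 bp held 205 of them. Reads from the transgene cannot be told apart from the endogenous gene there, so this domain is no measure of the native locus. Hoxc9 coding sequence (780 bp) was covered over 468 bp in iHoxc9 and 45 bp in iHoxc6, but also over 489 bp in progenitors, and no line-specific domain lay in it.

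Hoxc6-expressing cells had more accessible domains of their own than Hoxc9-expressing cells. The iHoxc6 list held 41107 domains at least 150 bp wide, of which 9240 (22.5%) were iHoxc6-specific, and the iHoxc9 list held 31062, of which 3313 (10.7%) were iHoxc9-specific. The lists themselves were of unequal length, with 91181 and 63504 domains of all widths. With both cut to their 63504 widest domains, 9240 (22.5%) were iHoxc6-specific and 4033 (13.0%) iHoxc9-specific. The excess nearly vanished when each list was cut to its 31062 widest domains, which left 9204 (29.6%) and 8691 (28.0%) line-specific domains, or to its 20000 widest, which left 5053 (25.3%) and 4818 (24.1%). In these short lists, 47.0% and 61.9% of the line-specific domains (31062 widest) or 75.2% and 78.6% (20000 widest) met a narrower domain in the uncut list of the other line. Lists of equal number that mostly overlap domain for domain leave nearly equal numbers unmatched by construction. These cuts therefore cannot show why the uncut counts differed. The sequencing depth behind each list is unknown.

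Line-specific domains were narrow and of equal width in both classes. Their median width was 244 bp in iHoxc6 and 244 bp in iHoxc9, against 482 and 418 bp for the domains shared between the lists. The line-specific share fell from 41.9% of iHoxc6 domains and 19.5% of iHoxc9 domains of 150 to under 200 bp to 3.49% and 1.87% of those of 500 bp or wider. Just below the width minimum, at 140 to under 150 bp, 44.1% and 19.2% of domains had no counterpart, and just above it, at 150 to under 160 bp, 37.3% and 17.4%. A domain of the other list lay within 1 kb of 18.3% of iHoxc6-specific and 17.5% of iHoxc9-specific domains.

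The classes differed widely in whether the chromatin was already accessible before, or without, Hox induction. Day 2 progenitors held 60.4% (59.4 to 61.4) of iHoxc6-specific but 15.8% (14.6 to 17.1) of iHoxc9-specific domains, a difference of 44.6 percentage points (43.0 to 46.2). Day 4 no Dox cells held 73.3% and 25.4%, a difference of 47.9 points (46.2 to 49.6), and EB held 24.6% and 9.75%. Cutting both lists narrowed the progenitor difference. With the 31062 widest domains progenitors held 74.5% and 48.8% (25.7 points, 24.3 to 27.1), and with the 20000 widest 88.3% and 61.1% (27.3 points, 25.6 to 28.9). The iHoxc10 list separated the uncut classes least, with 41.8% of iHoxc6-specific and 34.4% of iHoxc9-specific domains and a difference of 7.38 points (5.46 to 9.27). Shared domains were held by progenitors in 90.0% of cases in iHoxc6. Both lines are compared with the same progenitor and no Dox lists, so the 2 sets of shares are not independent of each other. The no Dox list came from the iHoxc6 line and a separate set of records, possibly called with other settings, and the part of the cell line in its overlap with iHoxc6 was not tested.

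**Figure D1:**
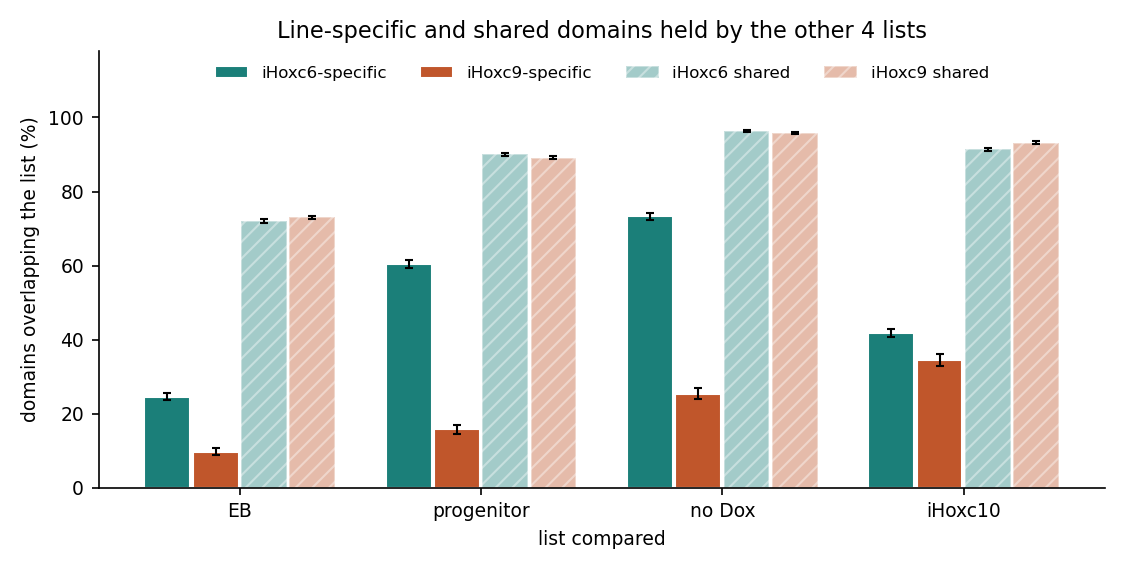
Percent of iHoxc6-specific (n = 9240) and iHoxc9-specific (n = 3313) domains overlapped by at least 1 bp in each of 4 other lists, named on the axis, with 95% Wilson intervals as bars. The classes lie furthest apart for progenitors (60.4% and 15.8%) and no Dox cells (73.3% and 25.4%) and closest for iHoxc10 (41.8% and 34.4%).

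Domains held by neither progenitors nor no Dox cells were termed new. They were the minority of iHoxc6-specific domains, 1612 (17.4% of the class), and the majority of iHoxc9-specific domains, 2285 (69.0%). Of all domains at least 150 bp wide, 3.92% were new iHoxc6-specific and 7.36% new iHoxc9-specific. New domains of 500 bp or wider numbered 14 in iHoxc6 and 142 in iHoxc9. In the lists cut to 31062 domains, 742 (8.06%) and 2924 (33.6%) line-specific domains were new. In those cut to 20000, it was 82 (1.62%) and 1042 (21.6%). New domains were thus a minority of both classes in these cut lists, with the order of the shares kept. When the no Dox list was left out and progenitors alone were the reference, the order of the counts turned, with 3659 new domains in iHoxc6 and 2790 in iHoxc9, while the order of the shares, 39.6% and 84.2%, did not. The iHoxc10 list held 17.9% of new iHoxc6-specific and 27.4% of new iHoxc9-specific domains, a difference (iHoxc6 minus iHoxc9) of -9.51 points (-12.1 to -6.87) and so opposite in sign to that over whole classes. No other list of the series held 1173 (12.7%) of the iHoxc6-specific and 1598 (48.2%) of the iHoxc9-specific domains.

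Earlier accessibility varied with width in iHoxc6-specific domains and little in iHoxc9-specific domains. Among iHoxc6-specific domains, the share held by progenitors rose from 54.2% at 150 to under 200 bp to 82.6% at 500 bp or wider, and that held by no Dox cells from 64.8% to 95.3%. Among iHoxc9-specific domains, the share held by progenitors was 16.9% at 150 to under 200 bp and 14.2% (10.2 to 19.4) at 500 bp or wider, and that held by no Dox cells 26.4% and 30.6% (24.9 to 37.0). The share held by iHoxc10 rose with width in both classes, from 32.8% to 75.5% (71.8 to 78.9) of iHoxc6-specific and from 28.6% to 59.4% (52.7 to 65.7) of iHoxc9-specific domains.

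Both classes lay away from promoters, and the iHoxc9-specific class more so. A promoter was met by 7.91% (7.38 to 8.48) of iHoxc6-specific and 2.78% (2.27 to 3.39) of iHoxc9-specific domains, a difference of 5.13 points (4.32 to 5.90), against 40.8% and 44.9% of shared domains. Introns held similar shares, 39.4% and 38.6%, exons 5.01% and 2.63%, and intergenic DNA 47.7% and 56.0%. The median distance to the nearest TSS of a protein-coding gene was 43.1 kb for iHoxc6-specific and 94.7 kb for iHoxc9-specific domains, and 31.5% and 48.9% lay over 100 kb away. Over 500 kb from any TSS, in gene deserts, lay 4.39% and 11.3%. Another domain of the same class within 50 kb was found for 44.6% of iHoxc6-specific and 19.9% of iHoxc9-specific domains, classes of unequal size. On the X chromosome 17.8% of iHoxc6 and 7.08% of iHoxc9 domains were line-specific. Single autosomes ranged from 19.3% to 25.1% in iHoxc6 and from 5.81% to 13.8% in iHoxc9. The X share thus lay below that range in iHoxc6 and inside it in iHoxc9.

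**Figure D2:**
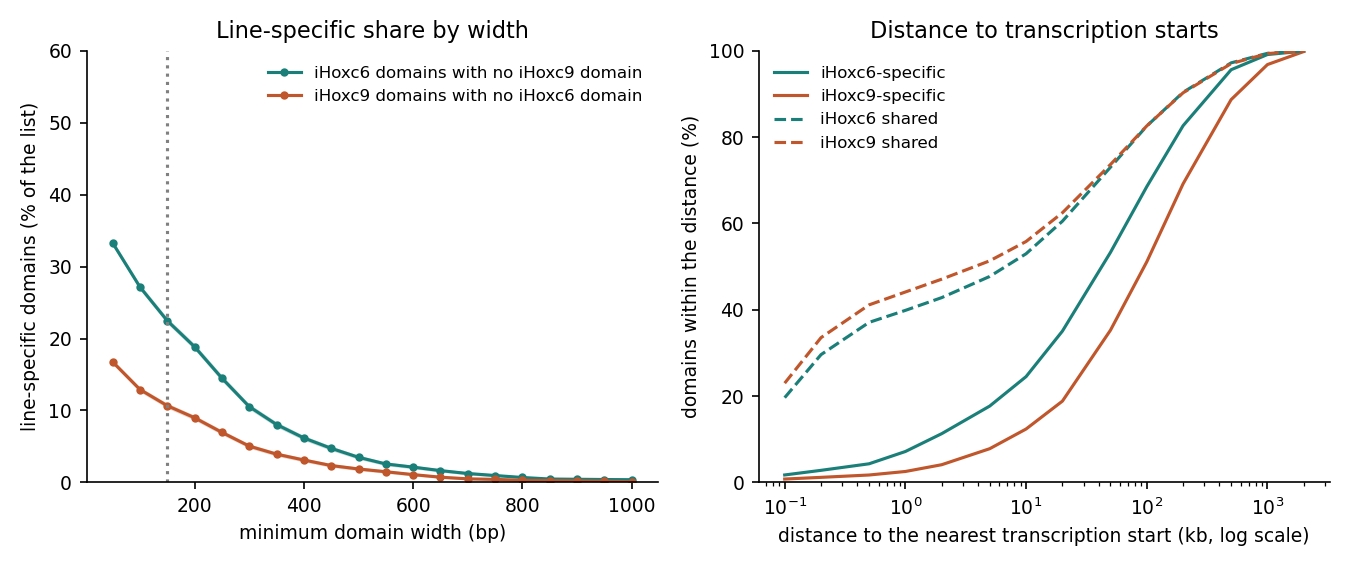
Line-specific share of domains by minimum width (left panel, percent against bp, dotted line at 150 bp) and cumulative percent of domains within a given distance of a TSS (right panel, kb, log axis), for both lines. The line-specific share falls with width in both lines, and iHoxc9-specific domains (median 94.7 kb) lie farther from a TSS than iHoxc6-specific domains (median 43.1 kb) and shared domains.

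The classes were alike in location where the chromatin was accessible beforehand and differed among new domains. Among domains that progenitors and no Dox cells both held, 9.31% (8.52 to 10.2) of iHoxc6-specific and 10.1% (7.35 to 13.8) of iHoxc9-specific domains met a promoter, and 29.3% and 28.4% lay over 100 kb from a TSS. Among new domains, 5.83% (4.79 to 7.08) and 1.23% (0.849 to 1.77) met a promoter, and 35.6% (33.3 to 38.0) and 53.0% (50.9 to 55.0) lay over 100 kb away.

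Sequence content separated the classes along the posterior string. In the central 150 bp of each domain, read on both strands, TTTAT (or ATAAA) was found in 68.5% (66.9 to 70.0) of iHoxc9-specific and 29.5% (28.6 to 30.4) of iHoxc6-specific domains, 2.32 times as often (2.23 to 2.41). Over all domains at least 150 bp wide of both lists, 24.9% held the string, and windows of the same length 5 kb to either side held it in 46.8% and 38.9%. iHoxc9-specific domains were therefore richer in TTTAT than their flanks, and iHoxc6-specific domains poorer. Windows of iHoxc9-specific domains had a lower GC content (median 42.7%) than those of iHoxc6-specific domains (48.0%), and at equal GC content the ratio was 1.83 (1.75 to 1.90). Against the shared domains of their own list at equal GC content, iHoxc9-specific domains held TTTAT 1.47 times as often (1.40 to 1.54) and iHoxc6-specific domains 0.855 times as often (0.821 to 0.890). In the lists cut to 31062 domains the shares were 48.8% and 30.3% (ratio 1.61), and in those cut to 20000, 47.8% and 25.9% (ratio 1.84).

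**Figure D3:**
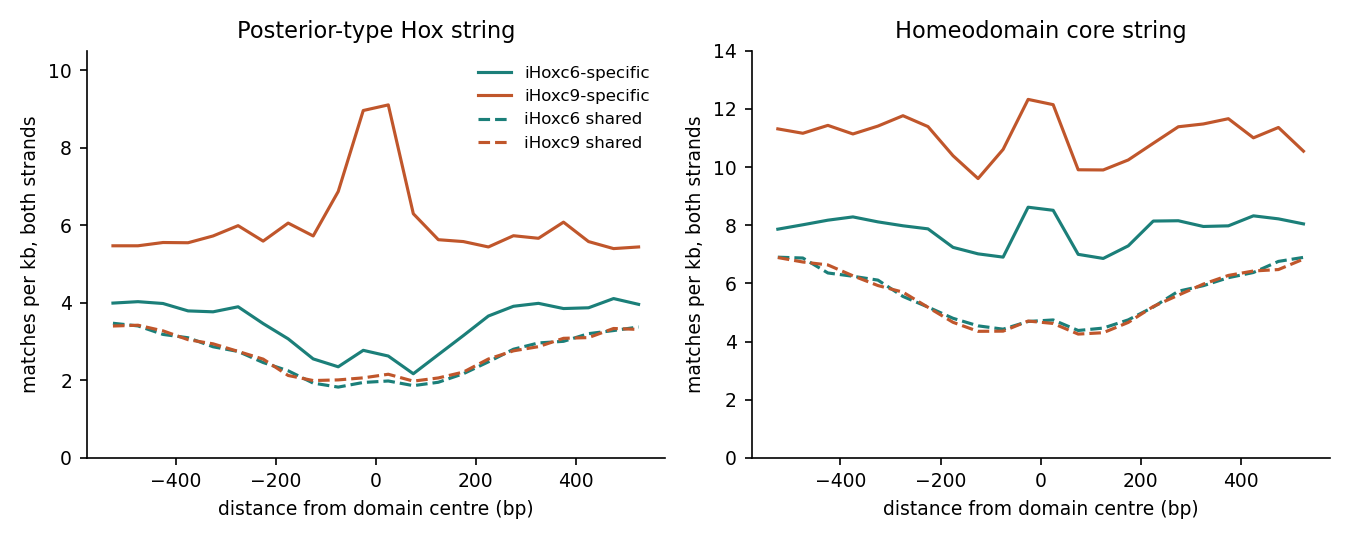
Matches per kb to the posterior-type string TTTAT and the core TAAT in 50 bp bins against distance from the domain centre (bp), with solid lines for line-specific and dashed lines for shared domains and both strands counted. The posterior-type string (left panel) peaks at the centre of iHoxc9-specific domains, at 9.10 matches per kb, and is at 2.63 at the centre of iHoxc6-specific domains, while the core (right panel) is at 12.1 and 8.51.

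The core TAAT differed far less. It was found in 74.7% of iHoxc9-specific and 58.9% of iHoxc6-specific domains, 1.27 times as often (1.24 to 1.30), against 41.1% of all domains and 66.2% and 58.2% of flanks. At equal GC content the ratio was 1.04 (1.01 to 1.08), and in the lists cut to 31062 domains 1.11. Both strings stood together in 54.2% of iHoxc9-specific and 20.8% of iHoxc6-specific windows, and neither in 11.0% and 32.5%. At least 3 matches to TTTAT lay in 13.3% of iHoxc9-specific and 1.33% of iHoxc6-specific windows.

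The composite TGATTTAT, which contains TTTAT, was in 6.16% (5.39 to 7.03) of iHoxc9-specific and 1.09% (0.900 to 1.33) of iHoxc6-specific windows, 5.63 times as often (4.45 to 7.13) and 4.22 times (3.30 to 5.39) at equal GC content, with 1.51% over all domains. Its anterior counterpart TGATTAAT, which contains TAAT, was in 1.48% and 1.03%, a ratio of 1.20 (0.832 to 1.74) at equal GC content. The Meis-type string TGACAG was in 14.2% and 14.3%, a ratio of 1.03 (0.925 to 1.14) at equal GC content, with 11.2% over all domains. The SOX-type string ACAATG went the other way, with 12.4% of iHoxc9-specific and 15.6% of iHoxc6-specific windows and a ratio of 0.655 (0.586 to 0.733) at equal GC content, and 9.39% over all domains. Other strings differed by less at equal GC content. The ratio was 1.13 (1.02 to 1.26) for the E-box CAGCTG (12.6% of iHoxc9-specific and 14.4% of iHoxc6-specific windows, 13.4% of all domains), 1.32 (1.04 to 1.67) for the E-box CATATG (3.68%, 2.42% and 1.89%) and 1.00 (0.889 to 1.13) for the Onecut-type string ATTGAT (12.3%, 9.50% and 5.95%). It was 0.941 (0.807 to 1.10) for the paired homeodomain string TAATTA, which contains TAAT (7.91%, 5.53% and 3.44%), and 0.898 (0.679 to 1.19) for the CTCF-type string AGGGGGC (1.87%, 4.05% and 6.28%). A match is a description of letters and not a binding site.

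Sorting by earlier accessibility changed the TTTAT share of iHoxc9-specific domains most. New iHoxc9-specific domains held it in 74.9% (73.1 to 76.6) of windows, and those that progenitors and no Dox cells both held in 44.2% (39.0 to 49.5). The corresponding iHoxc6-specific shares were 32.8% (30.5 to 35.1) and 26.5% (25.3 to 27.8). Of 1717 strings of 6 bases found in at least 2% of windows of either class, those most raised in iHoxc9-specific over iHoxc6-specific windows were TCGTAA (ratio 5.44), CATAAA (5.24, 36.1% and 6.89% of windows), CGTAAA (4.84), ATAAAA (4.03) and GATTTA (3.96). CATAAA and ATAAAA contain ATAAA, and CGTAAA is the reverse complement of TTTACG. Those with the lowest ratios were the GC-rich CGCCGC (ratio 0.316), CGCGCC (0.339), CCGCGC (0.342), CGCCCG (0.349) and CGCGGC (0.358). CGCCGC was found in 0.906% of iHoxc9-specific and 2.87% of iHoxc6-specific windows, but in 18.7% of iHoxc6 shared windows. Each of these GC-rich strings was scarcer in both line-specific classes than in the shared domains of either list. The ratios for strings of 6 bases were not taken at equal GC content.

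Line-specific accessibility was spread over many genes. At least 1 iHoxc6-specific domain was nearest to 5139 of 21851 protein-coding genes (23.5%), and at least 1 iHoxc9-specific domain to 2147 (9.83%). Of these genes 1382 had both, which is 26.9% of the former and 64.4% of the latter, so domains of both classes often had the same nearest gene. A gene with a long stretch of DNA nearest to it collects more domains of either class. The lists below are for that reason given beside the shares over all genes, 22.5% and 10.7% of domains. Those shares are not matched for distance to a TSS. Over the whole classes, 17.4% of iHoxc6-specific and 69.0% of iHoxc9-specific domains were new, and counts of new domains at genes are to be read beside these shares. Counts at single genes also moved with list length. Where the order of a named gene's counts turned in the lists cut to 31062 or 20000 domains, the counts there are given too. RNA levels were not analysed here, so the counts below say nothing of the expression of these genes.

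**Figure D4:**
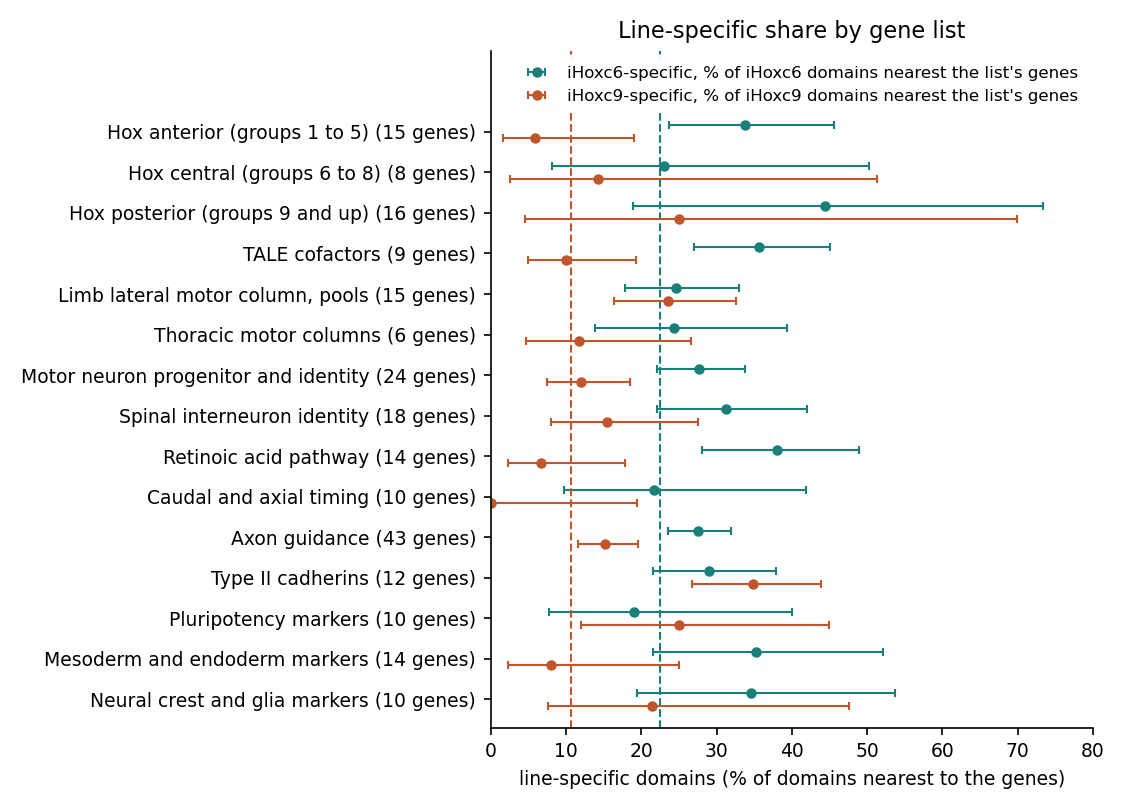
Percent of the domains nearest to the genes of each list that were line-specific, for iHoxc6 and iHoxc9, with 95% Wilson intervals and the shares over all genes (22.5% and 10.7%) as reference lines. Type II cadherin domains have the highest iHoxc9-specific share (34.8%), followed by pluripotency markers and posterior Hox genes (25.0% each, of 24 and 4 domains) and the limb list (23.5%). The iHoxc6-specific shares are highest for posterior Hox genes (44.4% of 9 domains) and the retinoic acid list (38.0%). TALE (35.6%), mesoderm and endoderm (35.3%) and crest and glia (34.6%) lists follow.

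Genes of the limb-innervating lateral motor column and its pools had similar line-specific shares in both lines, while the shares over all genes were unequal. Of domains nearest to these 15 genes, 30 of 122 (24.6%, 17.8 to 32.9) were iHoxc6-specific, against 22.5% over all genes. For iHoxc9-specific domains it was 24 of 102 (23.5%, 16.4 to 32.6), against 10.7%. Epha3, Epha4, Epha7 and Sema3e were also on the axon guidance list, and Cdh20 on the type II cadherin list. Their domains are counted in each. Foxp1, the lateral motor column determinant, had 2 iHoxc6-specific and 3 iHoxc9-specific domains. Epha4, the Eph receptor that steers lateral axons dorsally in the limb, had 5 and 5, of which 1 and 5 were new. Epha7, a related receptor, had 4 and 6, of which 1 and 4 were new, and the pool cadherin Cdh20 had 3 and 6, of which 0 and 5 were new. Gfra1, a co-receptor for the limb-derived factor GDNF, and the repulsive ligand Sema3e had 4 iHoxc6-specific domains each and 0 iHoxc9-specific domains. New domains of the list numbered 7 of 30 in iHoxc6 and 18 of 24 in iHoxc9, close to the 17.4% and 69.0% of the whole classes. In lists cut to 31062 domains, the shares were 31.5% and 38.2%, against 29.6% and 28.0% over all genes.

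The widest domains of each class near limb-list genes are shown as an example of each. An iHoxc6-specific domain of 648 bp lay in an intron of Foxp1, 33.8 kb from its TSS, and its centre is chr6:98994341-98994540. It was covered over 173 bp in no Dox cells and 0 bp in progenitors and iHoxc10. An iHoxc9-specific domain of 550 bp lay 832 kb from Epha7, with its centre at chr4:27981491-27981690, and was covered over 418 bp in progenitors, 528 bp in iHoxc10 and 0 bp in no Dox cells. Capitals again mark TTTAT and ATAAA on the GRCm38 plus strand.
iHoxc6-specific, Foxp1: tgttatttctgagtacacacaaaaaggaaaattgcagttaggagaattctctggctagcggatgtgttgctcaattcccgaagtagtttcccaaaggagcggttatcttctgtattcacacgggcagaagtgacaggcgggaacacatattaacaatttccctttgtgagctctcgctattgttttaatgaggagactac
iHoxc9-specific, Epha7: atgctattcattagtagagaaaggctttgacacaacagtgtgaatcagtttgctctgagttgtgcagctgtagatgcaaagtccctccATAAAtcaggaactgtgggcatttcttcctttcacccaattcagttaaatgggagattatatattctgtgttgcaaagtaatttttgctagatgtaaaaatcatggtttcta
The match in the Epha7 stretch, followed by TCA, is the reverse complement of the composite TGATTTAT, and the Foxp1 stretch holds none.

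Genes of the thoracic preganglionic and hypaxial columns had 10 of 41 (24.4%, 13.8 to 39.3) iHoxc6-specific and 4 of 34 (11.8%, 4.67 to 26.6) iHoxc9-specific domains, both close to the shares over all genes. Zeb2, a zinc finger repressor, had 5 and 2, but 5 and 6 in lists cut to 31062 domains, where the list's shares were 25.0% and 26.5%. Motor neuron progenitor and identity genes had 61 of 221 (27.6%, 22.1 to 33.8) and 16 of 134 (11.9%, 7.48 to 18.5). Among them were Ebf3 with 9 iHoxc6-specific and 2 iHoxc9-specific domains, Lmo4 with 6 and 1, and the progenitor factor Nkx6-1 with 5 and 0. Irx3, a progenitor factor counted to this list though not particular to motor neurons, had 8 and 2. Mecom had 4 and 1, but 2 and 4 in lists cut to 31062 domains. Isl1, a LIM homeodomain determinant of motor neurons, had 4 and 4, of which 1 and 4 were new. Spinal interneuron identity genes had 25 of 80 (31.3%, 22.2 to 42.1) and 8 of 52 (15.4%, 8.01 to 27.5), with Pax2 at 5 and 0 and Foxd3 at 3 and 0. Pou4f1 had 4 and 1, but 3 and 5 in lists cut to 31062 domains and 2 and 4 in those cut to 20000.

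Type II cadherins, adhesion molecules that sort motor neurons into pools, had the highest share of iHoxc9-specific domains among these lists. Of their domains 40 of 115 (34.8%, 26.7 to 43.9) were iHoxc9-specific, against 10.7% over all genes, and 34 of 117 (29.1%, 21.6 to 37.8) iHoxc6-specific, against 22.5%. New domains numbered 31 of 40 in iHoxc9 and 3 of 34 in iHoxc6, against 69.0% and 17.4% of the whole classes. Cdh8 had 11 iHoxc9-specific and 4 iHoxc6-specific domains, of which 10 and 1 were new, Cdh9 had 5 and 3, and Cdh12 3 and 3. The reverse order held for Cdh11, with 8 iHoxc6-specific and 4 iHoxc9-specific domains, and in the uncut lists for Cdh6, with 7 and 5. In lists cut to 31062 domains Cdh6 had 6 and 12, and in those cut to 20000 it had 3 and 5. Cdh8 had 4 iHoxc6-specific and 3 iHoxc9-specific domains among the 20000 widest. These genes stand alone in long stretches of DNA, with a median of 1948 kb to which they are the nearest gene, against 47.4 kb over all genes. The shares over all genes are not matched for distance to a TSS. Over 100 kb from any TSS, the iHoxc9 list held 1620 line-specific and 4832 shared domains, and the iHoxc6 list 2909 and 5557. Over 500 kb, the counts were 375 and 826 in iHoxc9, and 406 and 893 in iHoxc6. A share of cadherin domains at equal distance was not computed. In lists cut to 31062 domains, 57.4% of iHoxc9 and 47.1% of iHoxc6 domains nearest to these cadherin genes were line-specific.

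The widest line-specific domains of this list lay far from any gene and are shown for their position. That of iHoxc6 (1073 bp) lay 420 kb from Cdh6, with its centre at chr15:13593414-13593613, and was covered over 45 bp in progenitors and 290 bp in no Dox cells. That of iHoxc9 (687 bp) lay 1020 kb from Cdh9, with its centre at chr15:17797777-17797976, and none of the other 5 lists covered it. The same capitals and strand are used.
iHoxc6-specific, Cdh6: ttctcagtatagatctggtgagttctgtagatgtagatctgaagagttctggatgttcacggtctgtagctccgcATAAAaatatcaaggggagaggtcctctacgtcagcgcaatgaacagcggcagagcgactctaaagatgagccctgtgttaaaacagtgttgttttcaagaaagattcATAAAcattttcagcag
iHoxc9-specific, Cdh9: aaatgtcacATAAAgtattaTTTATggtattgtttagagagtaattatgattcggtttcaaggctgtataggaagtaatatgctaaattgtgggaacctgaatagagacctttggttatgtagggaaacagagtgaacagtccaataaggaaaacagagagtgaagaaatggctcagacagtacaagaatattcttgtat
Each stretch holds 2 matches to TTTAT, and that near Cdh9 also holds 4 to TAAT. Of the 2 matches near Cdh6, 1 lies in the central 150 bp, whereas both matches near Cdh9 lie outside it. This pair thus runs against the order of the whole classes. In windows of that length, 70.5% of iHoxc6-specific domains held no TTTAT and 22.9% held 1 match. Of iHoxc9-specific domains, 31.5% held none and 33.1% held 1 match.

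Axon guidance genes had 120 of 436 (27.5%, 23.5 to 31.9) iHoxc6-specific and 47 of 310 (15.2%, 11.6 to 19.6) iHoxc9-specific domains. Of these, 20 of 120 and 37 of 47 were new, against 17.4% and 69.0% of the whole classes. The Slit receptor Robo2 had 9 iHoxc6-specific domains and 1 iHoxc9-specific domain, and the ephrin Efna5 8 and 1. The Robo ligand Slit2 had 6 and 1, but 1 and 3 among the 20000 widest domains. The semaphorin receptor Nrp2 had 7 and 0, all 7 of them held by progenitors, and Nrp1 had 6 and 1, but 3 and 5 in lists cut to 31062 domains and 2 and 4 in those cut to 20000.

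Genes of the retinoic acid pathway had a high share of domains specific to iHoxc6, 30 of 79 (38.0%, 28.1 to 49.0), and 3 of 45 (6.67%, 2.29 to 17.9) specific to iHoxc9. Cyp26b1, which degrades retinoic acid, had 8 iHoxc6-specific domains and 1 iHoxc9-specific domain. Crabp2, a retinoic acid carrier, and Dhrs3, a retinaldehyde reductase, had 4 and 0 each. The receptor genes Rarb and Rxra had 3 and 2, and 3 and 0, but Rarb had 2 and 3 in both cut lists. In lists cut to 31062 domains, the shares were 44.1% and 22.2%. TALE cofactor genes had 37 of 104 (35.6%, 27.0 to 45.1) and 7 of 70 (10.0%, 4.93 to 19.2). Meis1 had 13 iHoxc6-specific domains and 1 iHoxc9-specific domain, Meis2 12 and 2, and Pknox2 4 and 1. In lists cut to 31062 domains these counts were 9 and 4, 9 and 4, and 3 and 5, and among the 20000 widest 3 and 2, 1 and 3, and 1 and 2. Over the whole list, 30 of 75 and 20 of 70 (28.6%) domains were line-specific in lists cut to 31062 domains. Of the 10 caudal and axial timing genes, 5 of 23 domains were iHoxc6-specific and 0 of 16 iHoxc9-specific, a count of 0 that allows up to 19.4% (Wilson).

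Markers of other cells were also met. Of the domains nearest to pluripotency genes, 4 of 21 were iHoxc6-specific and 6 of 24 iHoxc9-specific, with Dppa4 at 1 and 3. Mesoderm and endoderm genes had 12 of 34 and 2 of 25, with Kdr at 4 and 0, and neural crest and glia genes 9 of 26 and 3 of 14, with Tfap2b at 4 and 2, but 0 and 2 among the 20000 widest. All but the pluripotency genes thus had more iHoxc6-specific domains, as did all genes together, and the part of such cells was not tested.

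Together, the 4 Hox clusters held more domains in iHoxc6 than in iHoxc9. Within 5 kb of their outermost genes the iHoxc6 list held 82 domains at least 150 bp wide, 28 of them iHoxc6-specific. The iHoxc9 list held 44, 5 of them iHoxc9-specific. Over all domains the line-specific shares were 22.5% and 10.7%, so the iHoxc9-specific share in the clusters was close to that of the whole list. The line-specific domains of iHoxc6 were 7 in HoxA, 8 in HoxB, 4 in HoxC and 9 in HoxD, and those of iHoxc9 were 2, 0, 1 and 2. No Dox cells held 26 of the 28 and progenitors 18 of the 28, whereas no Dox cells held 2 of the 5 iHoxc9-specific domains and progenitors 0. By the same count the clusters held 37 domains in EB, 67 in progenitors, 91 in no Dox cells and 83 in iHoxc10. In HoxB iHoxc9 had 8 domains, fewer than iHoxc6 with 25, no Dox cells with 32 and iHoxc10 with 29, and as many as EB with 8. In lists cut to 31062 domains, 38 of 70 iHoxc6 and 11 of 44 iHoxc9 domains were line-specific, against 29.6% and 28.0% over all domains. HoxC did not follow the others, with 11 domains in iHoxc6 and 10 in iHoxc9 there (5 and 4 line-specific) and 5 in each among the 20000 widest (2 and 2), whereas HoxB had 19 and 8 (13 and 2), then 14 and 4 (10 and 0).

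**Figure D5:**
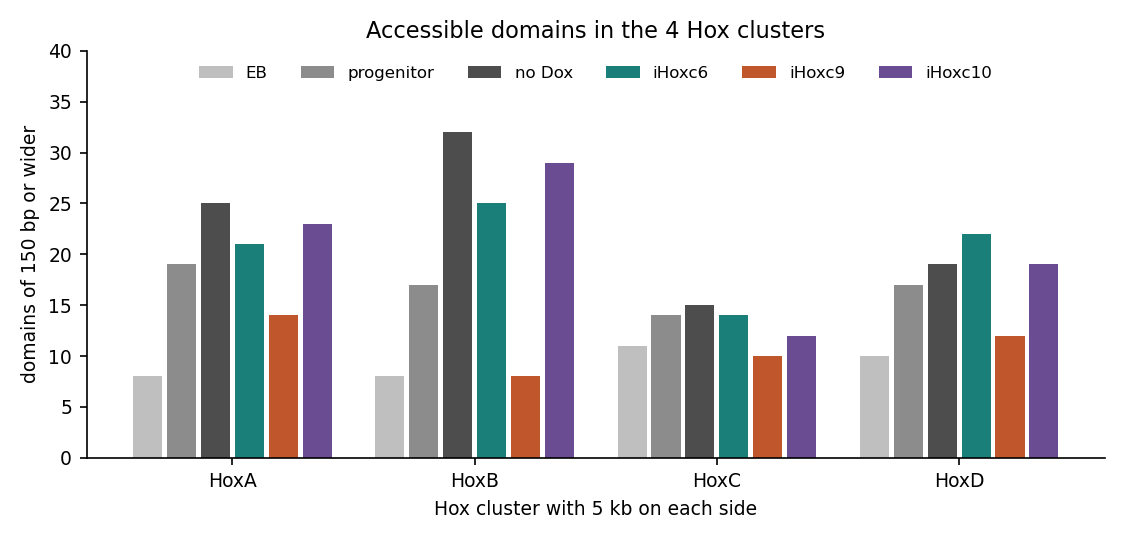
Number of domains at least 150 bp wide (bars) in the HoxA, HoxB, HoxC and HoxD clusters, with 5 kb on each side, in each of the 6 lists. In these uncut lists iHoxc9 has fewer domains than iHoxc6 in each cluster, with the widest gap in HoxB (8 against 25), but in lists cut to their 20000 widest domains HoxC has 5 in both.

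Most domains nearest to a Hox gene, line-specific or not, belonged to anterior Hox genes, paralog groups 1 to 5. These genes are active in the hindbrain and cervical cord and are induced by retinoic acid. Of the domains nearest to them, 23 of 68 (33.8%, 23.7 to 45.7) were iHoxc6-specific and 2 of 34 (5.88%, 1.63 to 19.1) iHoxc9-specific. Hoxd4 had 4 and 0, Hoxc4 3 and 0, Hoxb3 3 and 0, Hoxa4 2 and 0, and Hoxa2, Hoxa3, Hoxb2 and Hoxb5 1 and 0 each (Hoxb5 0 and 1 in lists cut to 31062 domains). Hoxd3, with 3 and 2, was the only anterior gene with iHoxc9-specific domains nearest to its TSS. A further iHoxc9-specific domain, of 271 bp, lay over the annotated 5′ end of Hoxa3 and was counted to Gm28308, a gene model with a nearer TSS. The widest iHoxc6-specific domain here, 911 bp at the Hoxd4 promoter, was covered over 871 bp in no Dox cells, 589 bp in iHoxc10 and 296 bp in progenitors. Of central genes (groups 6 to 8), Hoxb7, Hoxb8 and Hoxc6 had 1 iHoxc6-specific domain each, that of Hoxc6 being the one in its coding sequence. Hoxc8 had 1 iHoxc9-specific domain of 194 bp. Central genes together had 3 of 13 (23.1%, 8.18 to 50.3) iHoxc6-specific and 1 of 7 iHoxc9-specific domains. Of posterior genes (groups 9 to 13), Hoxb9, Hoxd9, Hoxd10 and Hoxc12 had 1 iHoxc6-specific domain each, and Hoxa13 had 1 iHoxc9-specific domain. Hoxa13 thus had 0 and 1, but 1 and 1 in lists cut to 31062 domains and 1 and 0 in those cut to 20000. Posterior genes together had 4 of 9 (44.4%, 18.9 to 73.3) iHoxc6-specific and 1 of 4 iHoxc9-specific domains. The iHoxc6-specific share was thus not highest at anterior genes, though the posterior count is small.

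Of the 8 genes with the largest excess of iHoxc9-specific domains Cdh8 came first, followed by Pcdh20, a protocadherin, with 8 iHoxc9-specific and 2 iHoxc6-specific domains. Brinp3 had 8 and 1, Lrrn1, a leucine-rich repeat membrane protein, 8 and 2, and Sel1l, a component of protein degradation at the endoplasmic reticulum, 9 and 3. Msl3l2 had 5 and 1, Manea 6 and 1, and Arrdc3 5 and 0. All 9 domains at Sel1l, all 8 at Pcdh20 and 7 of the 8 at Lrrn1 were new, against 5 of 8 at Brinp3. With the lists of equal length these genes were ranked by 12 domains at Cdh8, 10 at Pcdh20 and 9 at Lrrn1.

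Of the 8 genes with the largest excess of iHoxc6-specific domains, Smim15 had 14 iHoxc6-specific and 0 iHoxc9-specific domains, and the synaptic adhesion gene Nrxn3 17 and 3. Sox2, the neural progenitor factor, had 14 and 2, of which 10 and 2 were held by progenitors, and Sox4 had 10 and 0, of which 9 were held by progenitors. Among the 20000 widest domains Sox2 had 4 and 3, and Sox4 3 and 3. Zfp608 had 15 and 1, Zfhx3 13 and 1, and Meis1 13 and 1, as given above. Prl2c3 had 15 and 2 but no shared domain, and it belongs to a multigene family with near-identical copies, so its counts are uncertain.

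Few promoters were held in a single line. A promoter domain at least 150 bp wide in one list, with none of any width in the other, was found for 266 genes (1.22%) in iHoxc6 and 24 (0.110%) in iHoxc9. Of the iHoxc6 promoters, 83.8% (78.9 to 87.8) were held by progenitors, 78.2% by no Dox cells and 54.9% by iHoxc10. They included Chat, the enzyme of acetylcholine synthesis, Hoxd10 and Tfap2b. Of the 24 iHoxc9 promoters, 12 were held by progenitors and 13 by no Dox cells, and they included Hoxa3, Dbx1 (a ventral interneuron progenitor factor), Wnt9b and Htr2a, chosen after their values were seen.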

How the data were processed

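ATAC-seq was performed on 12 samples in 6 groups of 2, grouped by the labels. Per the study's methods, reads were mapped to mm10 with Bowtie2 (2.2.2) and accessible domains were defined with DomainFinder, and the submitters' processing notes also name Picard (2.8.2). The deposited lists give coordinates only, 1 list per group made by the authors from both samples, so depth is unknown and leaving out a replicate was not possible. The values reported here are counts, widths and shares computed from those coordinates. Whether starts count from 0 or 1 is not given in the sources used here, which leaves each coordinate uncertain by 1 bp.

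The autosomes (1 to 19) and both sex chromosomes were used. Promoters (1 kb around a TSS), introns, exons and nearest genes were taken from the GENCODE M21 basic annotation of protein-coding genes (21851), and sequences from the RefSeq copy of GRCm38. Strings were counted on both strands in the central 150 bp and in windows of the same length 5 kb to either side. Shares at equal GC content were averaged over 20 GC bins with at least 20 windows per class. Shares have 95% Wilson intervals, differences Newcombe intervals and ratios intervals on a log scale, all for counting error only. Domains close together are not independent, so these intervals are too narrow by an unknown amount. Python 3.11.15, NumPy 2.4.6 and Matplotlib 3.10.9 were used, and the overlap and string counts were tested on simulated data.

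The members and gene lists were chosen with earlier results of these data known. Genes were named by rule: per list, up to 6 genes with at least 3 line-specific domains of a class, the 8 genes with the largest excess in either direction in lists of equal length, every Hox cluster gene with a line-specific domain, and the widest domains. Promoter genes are named outside this rule, and some genes that meet it are not reported here. Alternatives were other list lengths, widths (100 to 300 bp), overlaps, windows and promoter distances. The lists cut to 31062 domains, all alternatives for new domains, and the shortest lists for shares and ratios were added after seeing the data.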

Additional observations from a re-analysis of the deposited data

How the results depend on the processing

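The 9 results (both counts of line-specific domains, both counts of new domains and their difference, the progenitor and promoter differences, and the TTTAT and TAAT ratios) were recomputed under 59 alternatives. Of these, 29 values stayed within their limits, 29 moved and 1 reversed. The reversal came without the no Dox list, where 3659 iHoxc6-specific domains were new and the iHoxc9 count minus the iHoxc6 count of new domains became -869 (673 as reported). At a minimum width of 300 bp, iHoxc6-specific and iHoxc9-specific domains numbered 2763 and 998, the new ones 187 and 688, the progenitor difference was 58.3 points, the promoter difference 6.62 points and the TTTAT ratio 2.23. Requiring coverage over at least 50% of a domain gave 18409 and 6296 line-specific domains. The 20000 widest domains gave 5053 iHoxc6-specific domains, 82 and 1042 new domains, a progenitor difference of 27.3 points, a promoter difference of 9.83 points and a TTTAT ratio of 1.84. The 31062 widest gave 8691 iHoxc9-specific and 742 new iHoxc6-specific domains, a difference of new counts of 2182, a progenitor difference of 25.7 points and ratios of 1.61 for TTTAT and 1.11 for TAAT. Lists of equal length gave a progenitor difference of 40.6 points, and a promoter distance of 5 kb a difference of 10.04 points. The TTTAT ratio was 2.62 in the central 100 bp and 1.83 at equal GC content, and the TAAT ratio 1.33 in the central 100 bp, 1.04 at equal GC content and 1.23 without promoters. Fewer domains enter at larger widths and in shorter lists. For the other moves the cause was not tested.

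No paired analysis was possible because each list pools both samples of its group. The main limits are the same pooling, which leaves no replicate error, the unknown depth of each list, and the small width of line-specific domains (median 244 bp). Leaving out a replicate was not possible for the same reason.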

Other observations

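Of the 24 promoters with a domain in iHoxc9 and none in iHoxc6, EB held 17 and iHoxc10 held 8. Of the 266 promoters held the other way round, EB held 211 and iHoxc10 held 146. The stretch nearest to Prl2c3, a prolactin family gene, held 15 iHoxc6-specific domains over 4814 bp, of which 2 were held by progenitors and 6 were new, 2 iHoxc9-specific domains, and no domain shared between the lines.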
